A study of Mus musculus with 9 samples.

Results

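The enzymes described here carry sulphur from methionine through homocysteine to cysteine and then into glutathione. They were taken as every probe set of the array whose annotated symbol was Cth, Cbs, Ahcy, Mat2a, Mat2b, Gclc, Gclm, Gss, Gsr or Mtr. Of these 10 genes, 9 had at least 1 probe set (15 in all) among the 18193 genes with a single symbol on the array, and Mat2a was not analysed here. A value here is a log2 expression value, so that a difference of 1 is a doubling, and values ran from 2.27 to 15.35 over the arrays. Values under 4 were taken as near the floor of the measurement, and 8 of the 9 measured genes had a condition mean of at least 4.

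The study grew adult olfactory bulb stem cells (aOBSCs) as neurospheres, floating balls of neural stem cells and their progeny, and asked how a sparser supply of FGF-2 and EGF, the factors that keep these cells dividing, alters them. All cultures received both factors, at 20 ng/ml each, and RNA was taken after 7 days. In the control condition (Ctr) the factors were added every day, in C2 every 2 days and in C4 every 4 days, and at collection the C2 cells had been 1 day and the C4 cells 3 days without fresh factor. The cells had been kept to passage 3 with daily factors, and then for 2 more passages under their condition before the assays. Each condition had 3 arrays. No gene was altered in any condition. The cells were prepared from adult CD1 or C57Bl/6 mice, which for the array experiments were aged 7 and 15 months, and the sources used here do not say which animals gave which array. The series describes the arrays as biological replicates without stating that each was a separate culture, so the p-values measure the spread between these arrays.

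Pearson correlations between arrays of 1 condition, across probe sets, were 0.9977 to 0.9988, against 0.9953 to 0.9980 between conditions. Of the 11 measured markers of neural stem and progenitor cells, 10 were over the floor, with Prom1 near it. The markers of endothelial cells (6), pericytes and fibroblasts (7) and olfactory ensheathing cells (6) were all near the floor, as were Mbp, Mog and Mag of mature oligodendrocytes, Gfap of astrocytes and 7 of 11 markers of neuroblasts and neurons. These are bulk RNA samples, in which fewer cells of a type and less RNA per cell cannot be told apart.

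As background, methionine is activated to S-adenosylmethionine, the methyl donor of the cell, by methionine adenosyltransferase, of which Mat2a encodes the catalytic and Mat2b the regulatory subunit. After the methyl group is given away, Ahcy cleaves S-adenosylhomocysteine to homocysteine, which Mtr turns back into methionine. In transsulfuration Cbs joins homocysteine to serine and Cth cleaves the resulting cystathionine to cysteine. Cysteine can also be imported as cystine, and it limits the synthesis of glutathione, the main soluble thiol antioxidant of neural cells. Glutamate-cysteine ligase (catalytic subunit Gclc, modifier subunit Gclm) makes the first bond of glutathione, Gss adds glycine, and Gsr reduces the oxidised form.

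Among the measured enzymes, Cth and Gclc changed. Cth was higher in C2 and lower in C4 than in Ctr. Gclc was lower in C4. The other 7 genes did not pass the test in any comparison. In C2, 1 of the 9 genes was higher and 0 were lower than in Ctr (limma, adjusted p under 0.05 over 45037 probe sets), where 1.67% of all genes were higher and 0.846% lower (3.21% and 1.57% of genes with a mean of at least 4). In C4, 0 were higher and 2 lower, where 5.65% of all genes were higher and 3.55% lower (10.7% and 6.78% of the brighter genes). In C4 against C2, 0 were higher and 1 was lower, where 4.29% of all genes were higher and 3.49% lower (8.13% and 6.67% of the brighter genes). The median difference of the 9 genes was 0 in C2, 0.017 in C4 and -0.038 in C4 against C2, and that of all genes was 0 in each. At an unadjusted p under 0.05 the counts were 2, 2 and 3. The comparisons of C2 and C4 with Ctr share the 3 Ctr arrays.

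**Figure D1:**
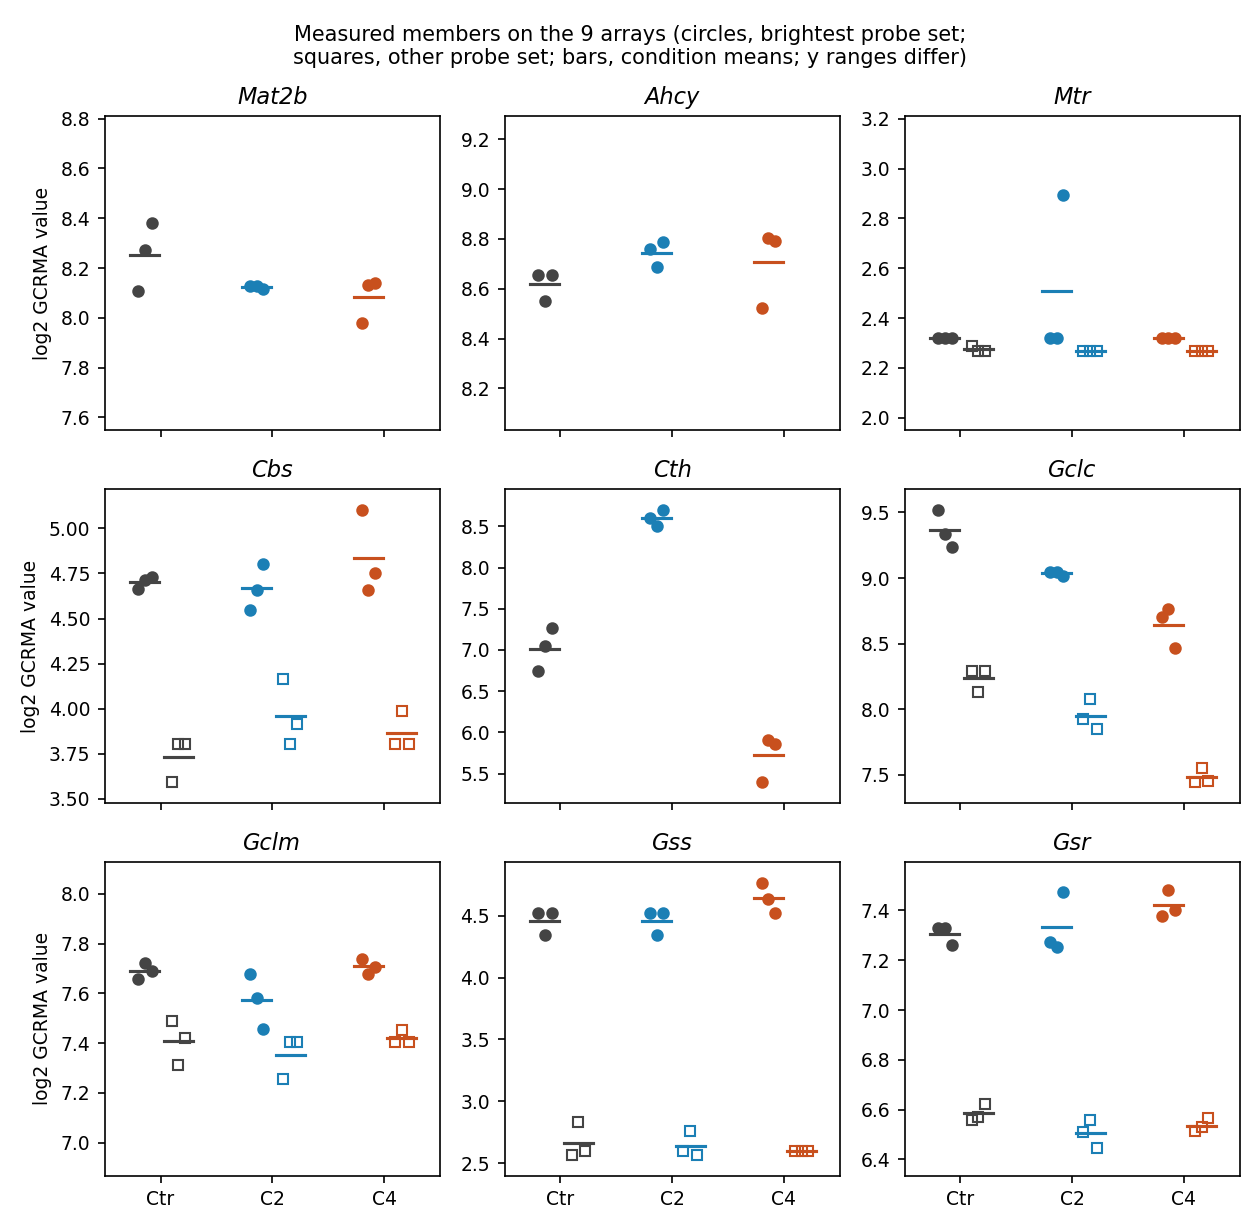
Log2 GCRMA values of the 9 measured genes on the 9 arrays, with the condition on the x axis (circles, brightest probe set; squares, the other probe set; bars, condition means; each panel has its own y range, of at least 1.2 units). The values of Cth in Ctr, C2 and C4 do not overlap, those of both Gclc probe sets step down from Ctr to C2 to C4, and within each probe set those of Gclm, Gsr, Ahcy and Cbs stay within 0.6 of each other.

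Cth, which encodes cystathionine gamma-lyase, the cysteine-forming enzyme of transsulfuration, is measured by 1 probe set (Entrez gene 107869). Its log2 values were 6.74, 7.05 and 7.26 in Ctr, 8.60, 8.51 and 8.70 in C2, and 5.40, 5.90 and 5.86 in C4. All C2 arrays were above all Ctr arrays, and all C4 arrays below them, so that the conditions did not overlap. The means were 7.02 ± 0.26, 8.60 ± 0.095 and 5.72 ± 0.28 (SD, n = 3 arrays each). In C2 Cth rose by 1.59 (standard error 0.18, 95% interval 1.16 to 2.01, 3.00-fold; limma, adjusted p = 0.0132). In C4 it fell by 1.30 (standard error 0.18, 95% interval of the difference -1.72 to -0.87, 2.46-fold lower; adjusted p = 0.00851). Between the longer intervals the difference was -2.88 (95% interval -3.31 to -2.46, 7.37-fold lower in C4; limma, adjusted p = 3.92e-04). The rise in C2 did not pass without Ctr replicate 2 (adjusted p = 0.0521), C2 replicate 1 (0.0525) or C2 replicate 3 (0.0561), nor with limma's robust option (0.0663). The fall in C4 did not pass when the C2 arrays were left out of the fit (0.0546).

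Cbs, the enzyme before Cth in the pathway, had values between 4.55 and 5.10 on all arrays, low on this scale. Its differences from Ctr were -0.035 in C2 (95% interval -0.33 to 0.26; limma, adjusted p = 1) and 0.13 in C4 (95% interval -0.16 to 0.43, adjusted p = 0.707), and the conditions overlapped. The other Cbs probe set lay between 3.59 and 4.16, near the floor. The value of Cth minus that of Cbs, taken within each array, changed by 1.62 in C2 and by -1.43 in C4 relative to Ctr and by -3.05 in C4 relative to C2. Each change had an exact 2-sided permutation p = 0.1, the smallest that 3 against 3 arrays allow (0.12 after Benjamini-Hochberg adjustment over the 6 such tests made here).

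In the methionine cycle, Ahcy, which encodes S-adenosylhomocysteine hydrolase, had values of 8.65, 8.55 and 8.66 in Ctr, 8.76, 8.69 and 8.79 in C2, and 8.52, 8.81 and 8.79 in C4. The 3 C2 arrays were above the Ctr arrays, by a mean of 0.12 (95% interval -0.070 to 0.32), which did not pass (limma, adjusted p = 0.735). The C4 difference was 0.086 (95% interval -0.11 to 0.28, adjusted p = 0.724), with overlapping arrays. Mat2b, the regulatory subunit, had values of 8.11, 8.27 and 8.38 in Ctr, 8.13, 8.13 and 8.11 in C2, and 7.98, 8.13 and 8.14 in C4. Its differences of -0.13 in C2 (95% interval -0.31 to 0.049) and -0.17 in C4 (95% interval -0.35 to 0.0096) did not pass (limma, adjusted p = 0.735 and 0.35). Both probe sets of Mtr, methionine synthase, stayed between 2.27 and 2.89, near the floor, so no change of Mtr could be measured.

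Glutathione synthesis starts with Gclc, and both of its probe sets were lowest in C4. The brighter one (Entrez gene 14629) had values of 9.52, 9.33 and 9.24 in Ctr, 9.04, 9.04 and 9.01 in C2, and 8.70, 8.76 and 8.47 in C4. The other had 8.29, 8.13 and 8.29 in Ctr, 7.92, 8.08 and 7.85 in C2, and 7.45, 7.55 and 7.45 in C4. In both probe sets every C2 array lay below every Ctr array and above every C4 array. In C4 Gclc fell by 0.72 (standard error 0.095, 95% interval of the difference -0.95 to -0.49, 1.65-fold lower; limma, adjusted p = 0.00749), and by 0.75 in the other probe set (standard error 0.072, adjusted p = 0.00223). The C2 differences of -0.33 (95% interval -0.56 to -0.10) and -0.29 (95% interval -0.46 to -0.12) did not pass (limma, adjusted p = 0.224 and 0.149). Between C4 and C2 the brighter probe set had a difference of -0.39 that did not pass (adjusted p = 0.0813), while the other passed with -0.47 (adjusted p = 0.0152). When the C2 arrays were left out of the fit, the call for the brighter probe set in C4 was lost (adjusted p = 0.054).

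Gclm, the modifier subunit that works with Gclc, had values between 7.46 and 7.74 on all 9 arrays. Its differences from Ctr were -0.12 in C2 (95% interval -0.25 to 0.011) and 0.017 in C4 (95% interval -0.11 to 0.15), neither of which passed (limma, adjusted p = 0.557 and 1). The second Gclm probe set had differences of -0.053 in C2 and 0.013 in C4. The value of Gclc minus that of Gclm within each array was 1.55 to 1.86 in Ctr, 1.37 to 1.56 in C2 and 0.76 to 1.08 in C4. It was thus lower on each C4 array than on any Ctr array, by 0.74 in the mean (exact 2-sided permutation p = 0.1, the smallest possible; 0.12 adjusted over the 6 tests). In C2 it was lower by 0.21 in the mean, with overlapping arrays (difference -0.21, exact permutation p = 0.2). With 3 arrays a condition these tests could not reach an adjusted p under 0.05.

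The promoter of Gclm is shown because it holds a match to the antioxidant response element, a sequence bound by the transcription factor NRF2, for which Gclc and Gclm are known targets. Sequences are those of RefSeq on GRCm38.p6, in windows of 1 length that span each gene's start site. The letters searched were TGACNNNGC on both strands. They occur in 1 of the 7 enzyme genes with a promoter in the table used (14.3%) and in 14.0% of all 27025 genes with one. The match is in capitals, at chr3:122245413-122245441 on the plus strand, with the element read on the opposite strand.
Gclm: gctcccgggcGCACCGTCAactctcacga
Of the enzyme genes, Cbs holds CACGTG, an E-box, which occurs in 8.09% of all genes. These matches are letters in a sequence and were not tested for binding.

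Gss and Gsr, the later enzymes of the pathway, did not pass in any comparison. Gss had values of 4.52, 4.34 and 4.52 in Ctr, 4.52, 4.34 and 4.52 in C2, and 4.76, 4.64 and 4.52 in C4. These values were low on this scale, and those of Ctr and C2 were identical, so a small change of Gss could be missed. The C4 difference of Gss was 0.18 (95% interval -0.033 to 0.39; limma, adjusted p = 0.433), and its second probe set was near the floor. Gsr, glutathione reductase, had values of 7.33, 7.33 and 7.26 in Ctr, 7.27, 7.25 and 7.47 in C2, and 7.38, 7.48 and 7.40 in C4. The C4 arrays of Gsr were all above the Ctr arrays, by a mean of 0.11 (95% interval -0.037 to 0.26, adjusted p = 0.524), while its second probe set had a C4 difference of -0.048 (adjusted p = 0.632). The C2 difference of Gsr was 0.026 (95% interval -0.12 to 0.18, adjusted p = 1).

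**Figure D2:**
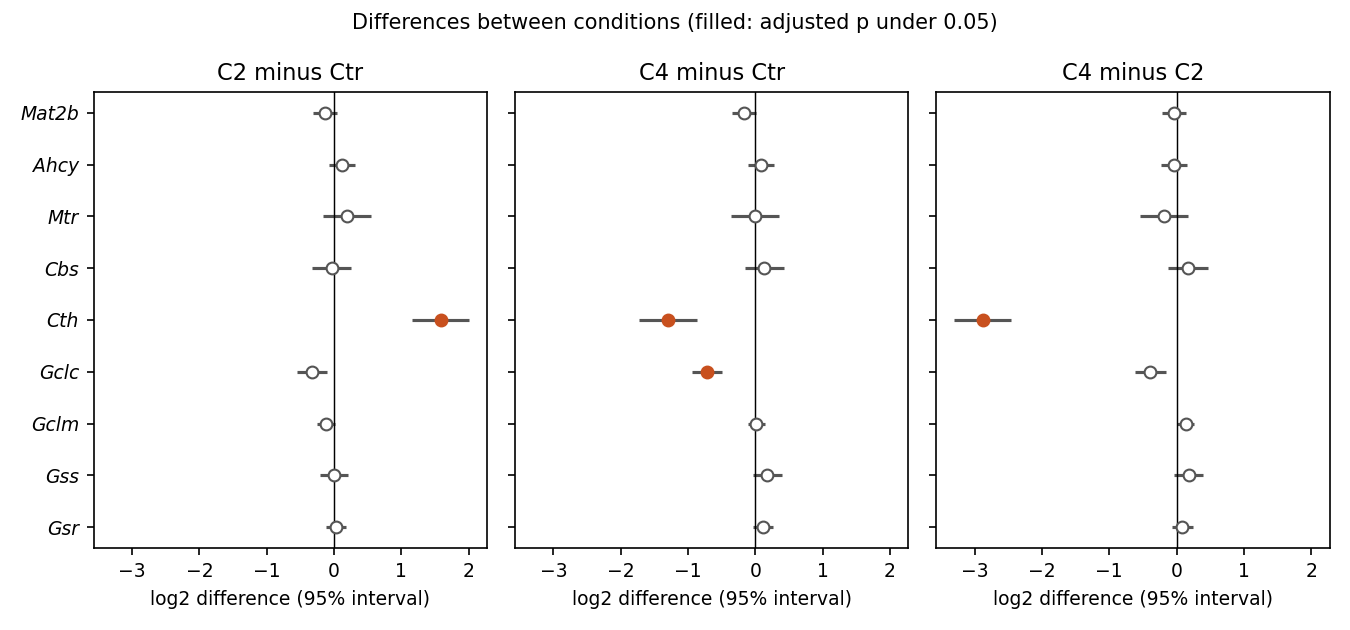
Log2 differences of the 9 measured genes for C2 minus Ctr, C4 minus Ctr and C4 minus C2 (x axis), by each gene's brightest probe set. Points are differences between means of 3 arrays, lines are 95% intervals from limma, and filled points have an adjusted p under 0.05. Cth lies far to the right in C2 (1.59) and to the left in C4 (-1.30), Gclc lies to the left in C4 (-0.72), and most intervals of the other genes include 0.

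The cell type markers moved between conditions as well. Of all genes, 5.65% were higher and 3.55% lower in C4 than in Ctr, and 1.67% and 0.846% in C2. Among genes with a mean of at least 4 these shares were 10.7% and 6.78% in C4 and 3.21% and 1.57% in C2. Of 10 astrocyte markers, 5 were higher in C4 than in Ctr and 0 lower, and their summed linear level was 25911 to 26588 in C4 against 21361 to 22505 in Ctr and 21341 to 21542 in C2. Of 9 measured markers of the oligodendrocyte lineage, 5 were higher in C4, with sums of 19363 to 20191 against 15538 to 16825 in Ctr and 15357 to 15949 in C2. Such sums are carried by a list's brightest markers, here mainly Olig1 (mean 13.78 in Ctr and 14.04 in C4). Of 11 stem and progenitor markers, 5 were higher and 1 was lower in C4, with sums of 65656 to 70000 that overlapped the 65573 to 70446 of Ctr. The C2 sums of this list, 62803 to 64680, lay below those of Ctr. Among its brightest markers, Fabp7 had a C4 difference of 0.34 (limma, adjusted p = 6.65e-04) and Vim of -0.40 (adjusted p = 0.0256). Of 10 markers of microglia and macrophages, 9 were near the floor, and the sum, carried by Cd68, was 260 to 309 in Ctr, 260 to 270 in C2 and 88 to 94 in C4. Of 11 markers of neuroblasts and neurons, 0 were higher and 2 lower in C4, Gad1 (-0.37, limma, adjusted p = 0.0152) and Calb1 (-1.82, adjusted p = 0.00648). The sums of this list were 5819 to 5857 in Ctr, 5269 to 5621 in C2 and 5531 to 6265 in C4. In C2, 0 markers of these 5 lists were higher, and 3 were lower, the astrocyte marker Aldh1l1 (-0.76, adjusted p = 0.0107) and the oligodendrocyte lineage markers Gpr17 (-1.71, adjusted p = 0.0272) and Cnp (-0.29, adjusted p = 0.0236). The markers named here were chosen after their values were seen. The part of these cell types in the C2 and C4 differences of Cth and Gclc was not tested.

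Some other genes of the methionine cycle and of methionine salvage passed. Of all genes, 1.67% were higher and 0.846% lower in C2, 5.65% and 3.55% in C4, and 4.29% and 3.49% in C4 against C2. Among genes with a mean of at least 4 these shares were 3.21% and 1.57% in C2 and 10.7% and 6.78% in C4. For C4 against C2 they were 8.13% and 6.67%. Of the 14 measured here, 1 was higher and 0 lower in C2, 2 were higher and 1 lower in C4, and 1 was higher and 1 lower in C4 against C2. The medians were 0.023, -0.023 and -0.021. Without Ctr replicate 3, 2 were lower in C2 and 2 in C4, and without C2 replicate 3, 2 were lower in C4 against C2. Ahcyl1, an Ahcy-like protein without that enzyme's role, rose by 0.49 in C4 (limma, adjusted p = 0.00213), from 11.03 to 11.16 on the Ctr arrays to 11.53 to 11.60. Of its other probe sets, 1 rose by 0.39 (adjusted p = 0.0374) and 1 had a difference of 0.26 (adjusted p = 0.129). Srm, spermidine synthase, which uses decarboxylated S-adenosylmethionine, rose by 0.49 in C2 (adjusted p = 0.0126) and was 0.045 from Ctr in C4. The call for Srm was lost without C2 replicate 3 (adjusted p = 0.0542). Mtap and Adi1, enzymes of methionine salvage, differed from Ctr by 0.37 and -0.17 in C4 (adjusted p = 0.0433 and 0.025). These calls were lost in 8 and 7 of the 9 fits that left out 1 array, with adjusted p up to 0.137 for Mtap without Ctr replicate 2 and 0.086 for Adi1 without Ctr replicate 1. A dimmer Mtap probe set passed against Ctr, being 0.75 higher in C4 (limma, adjusted p = 0.00202). It also passed in C4 against C2 (0.41, adjusted p = 0.0215). The remaining Mtap probe sets were 0.77 and 0.23 above Ctr in C4, without a call. For Adi1, the dimmer probe sets were near the floor. Its call was also lost when probe sets that may cross-hybridise were left out.

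Among genes that use or break down cysteine, Tst had the largest change that passed. Of the 9 genes, 1 was higher in C2 and 1 in C4, 0 were lower in either, and in C4 against C2 1 was higher (Tst) and 1 lower (Got1). The medians were 0, 0.12 and 0.056. Of all genes, 1.67% were higher and 0.846% lower in C2, 5.65% and 3.55% in C4, and 4.29% and 3.49% in C4 against C2. Among genes with a mean of at least 4 these shares were 3.21% and 1.57% in C2 and 10.7% and 6.78% in C4. For C4 against C2 they were 8.13% and 6.67%. Tst, thiosulfate sulfurtransferase, a mitochondrial enzyme that converts cyanide to thiocyanate, had values of 5.60, 5.65 and 5.63 in Ctr, 5.40, 5.40 and 5.55 in C2, and 6.82, 6.86 and 6.76 in C4. It rose by 1.19 in C4 (2.28-fold; limma, adjusted p = 1.23e-04), while its C2 difference of -0.17 did not pass (adjusted p = 0.202). Ethe1 and Sqor, which oxidise sulphide in mitochondria with Tst, differed from Ctr by 0.28 and 0.10 in C4, without a call (adjusted p = 0.252 and 0.35). Without C4 replicate 1, Sqor passed in C4 (0.15, adjusted p = 0.0288) and in C4 against C2 (0.17, adjusted p = 0.0225). Got1, an aspartate aminotransferase that also acts on cysteine sulfinate, had a C2 difference of 0.27 (adjusted p = 0.0253), a call lost in 7 of the 9 fits that left out 1 array (adjusted p up to 0.0709, without C2 replicate 1).

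The subunits of the cystine transporter had the same order of conditions as Cth, highest in C2 and lowest in C4. Slc3a2, the heavy chain that carries the cystine transporter to the membrane, had values of 11.09, 11.02 and 11.03 in Ctr, 11.64, 11.65 and 11.69 in C2, and 10.36, 10.41 and 10.40 in C4. Its rise of 0.61 in C2 (limma, adjusted p = 5.59e-04) and its fall in C4 (difference -0.66, adjusted p = 8.34e-05) left no overlap between conditions. Slc3a2 is also the heavy chain of other amino acid transporters. Slc7a11, the light chain that carries cystine, had values of 5.83, 5.90 and 5.90 in Ctr, 6.43, 6.91 and 6.83 in C2, and 5.55, 5.28 and 5.15 in C4. Its differences of 0.85 in C2 and -0.55 in C4 did not pass (limma, adjusted p = 0.0534 and 0.102), and both passed without C2 replicate 1 (1.00, adjusted p = 0.0374, and -0.55, adjusted p = 0.0464). Both also passed with a filter on dim probe sets (adjusted p = 0.00813 and 0.0212) and with arrays centred on the median (0.0173 and 0.029). With the mean of its probe sets they passed as well (0.0235 and 0.0463), and in the remaining settings they did not. C4 was lower than C2 by 1.40 (difference -1.40, adjusted p = 0.00376). The other Slc7a11 probe set had differences of 0.024 and -0.0061, without a call. Slc1a1, a glutamate transporter that also takes up cysteine, rose by 1.48 in C4 (adjusted p = 5.38e-04), from 3.36 to 3.55 on the Ctr arrays, near the floor, to 4.83 to 5.10. Of the 5 uptake genes, 1 was higher in C2 and 0 lower, 1 was higher and 1 lower in C4, and 1 was higher and 2 were lower in C4 against C2 (medians 0.30, -0.25 and -0.36). Over all genes, 1.67% were higher and 0.846% lower in C2, 5.65% and 3.55% in C4, and 4.29% and 3.49% in C4 against C2. Among genes with a mean of at least 4 these shares were 3.21% and 1.57% in C2 and 10.7% and 6.78% in C4. For C4 against C2 they were 8.13% and 6.67%.

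Genes that use or break down glutathione went both ways in C4. Of 30 measured genes, 2 were higher and 1 lower in C2, 5 were higher and 3 lower in C4, and 5 were higher and 5 lower in C4 against C2 (medians -0.0060, 0.010 and 0.0014). Over all genes, 1.67% were higher and 0.846% lower in C2, 5.65% and 3.55% in C4, and 4.29% and 3.49% in C4 against C2. Among genes with a mean of at least 4 these shares were 3.21% and 1.57% in C2 and 10.7% and 6.78% in C4. For C4 against C2 they were 8.13% and 6.67%. Chac1, which encodes a gamma-glutamylcyclotransferase that cleaves glutathione, had values of 7.56, 7.51 and 7.34 in Ctr, 8.33, 8.36 and 8.53 in C2, and 6.01, 6.31 and 6.13 in C4. It rose by 0.94 in C2 (1.92-fold; limma, adjusted p = 0.0112) and was 2.50-fold lower in C4 (difference -1.32, adjusted p = 9.04e-04), without overlap between conditions. Gstm1, a glutathione transferase, fell by 0.33 in C2 (adjusted p = 0.0118) and by 0.62 in C4 (adjusted p = 3.26e-04). Of its other probe sets, 1 also passed in both (-0.28 and -0.55), 1 in C4 (-0.45, adjusted p = 0.0027), and 1 was near the floor. The C2 call of Gstm1 was lost without C2 replicate 3 (adjusted p = 0.0501). The 3 C2 values of its brightest probe set were identical (11.18), so that their SD was 0. Gpx8, a peroxidase of the endoplasmic reticulum, rose by 0.76 in C4 (adjusted p = 0.00104).

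The other genes behind these counts were chosen after their values were seen. Gpx4, which reduces lipid peroxides with glutathione, rose by 0.28 in C2 (limma, adjusted p = 0.028). In C4 the transferases Gstt1 (0.80, adjusted p = 0.00123), Gsta4 (0.46, 0.0114), Mgst1 (0.36, 0.00476) and Mgst3 (0.59, 0.0244) rose and Gstp1 fell by 0.33 (adjusted p = 0.00239). In C4 against C2, Gpx8, Gstt1, Gsta4, Mgst1 and Mgst3 were higher and Chac1, Gpx4, Gstm1, Gstp1 and Hagh were lower. The transferases belong to families of similar genes, and sharing of probes between their members was not examined here. The count of 2 higher genes in C2 became 1 without any one of Ctr replicates 1 and 2, the 3 C2 arrays or C4 replicate 3.

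**Figure D3:**
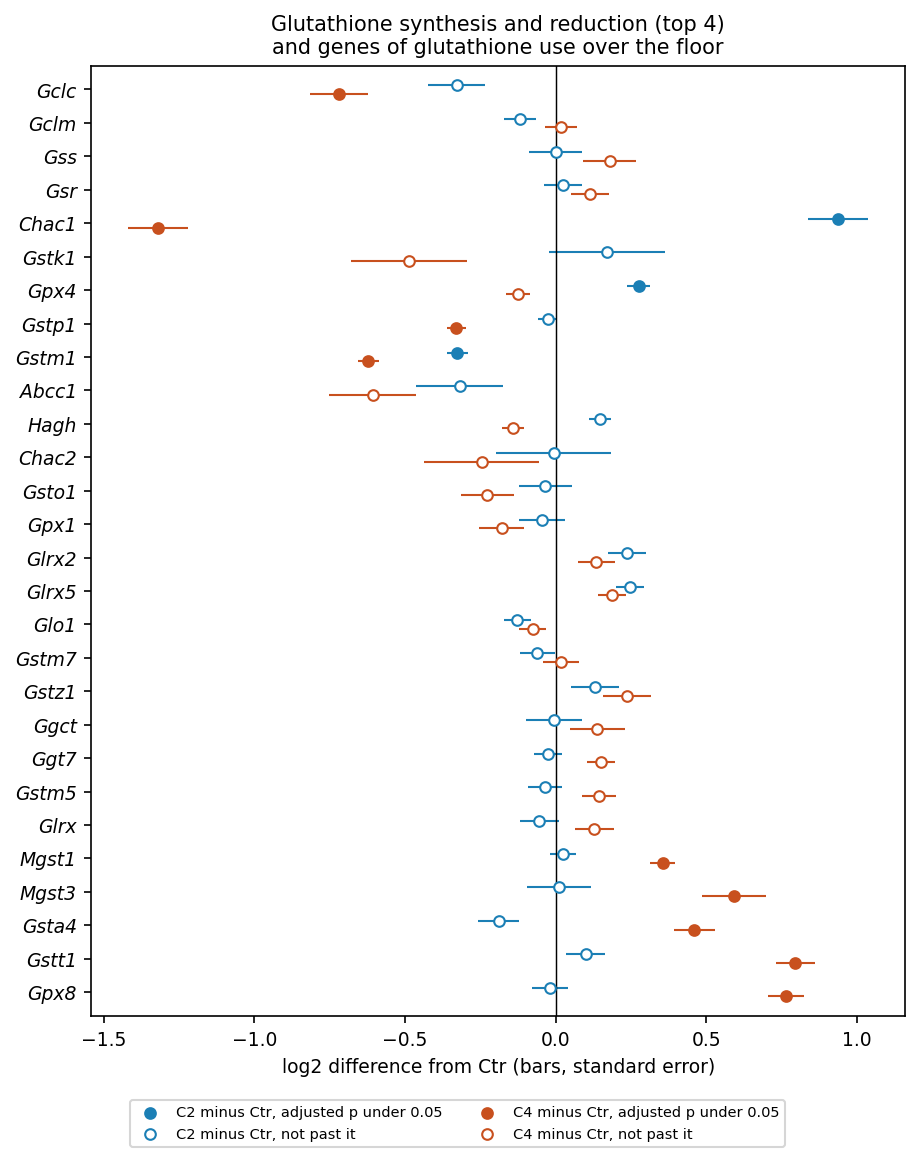
Log2 differences from Ctr in C2 (blue) and C4 (orange) of Gclc, Gclm, Gss and Gsr (top) and of the 24 genes of glutathione use and breakdown over the floor, by brightest probe set, ordered by C4 minus C2. Points are differences between means of 3 arrays, bars are standard errors from limma, and filled points have an adjusted p under 0.05. Chac1 stands out with 0.94 in C2 and -1.32 in C4, and Gstt1, Gpx8 and Mgst3 have the highest values in C4.

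Known NRF2 targets other than Gclc and Gclm included genes that fell in C4. Of 12 measured, 1 was higher in C2, 1 was higher and 2 were lower in C4, and in C4 against C2 1 was higher and 4 were lower (medians -0.077, -0.13 and -0.080). Of all genes with a mean of at least 4, 3.21% were higher and 1.57% lower in C2. The shares were 10.7% and 6.78% in C4, and 8.13% and 6.67% in C4 against C2. Hmox1, haem oxygenase, fell by 0.46 in C4 (limma, adjusted p = 0.0111) and Fth1, the ferritin heavy chain, by 0.25 (adjusted p = 0.00359). The other probe set of Fth1 had a C4 difference of -0.070 (adjusted p = 0.367). Txn1, thioredoxin, rose by 0.20 in C2 (adjusted p = 0.00714), a call lost with the mean of its probe sets (0.17, adjusted p = 0.387), with limma's robust option (0.094) and with a replicate block (0.0571). Its C4 difference of 0.092 (adjusted p = 0.0312) was lost in 8 of the 9 fits that left out 1 array (adjusted p up to 0.0785, without Ctr replicate 2). In C4 against C2 Pgd, of the pentose phosphate pathway, was higher by 0.43 (adjusted p = 0.0109; named after its value was seen), and Hmox1, Fth1, Txn1 and Slc7a11 were lower, a call that Txn1 lost in 5 of the 9 fits. When arrays were centred on the median, 5 of the 12 genes were lower in C4.

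Cth is also a known target of ATF4, a transcription factor that is made when amino acids are short or the endoplasmic reticulum is stressed and that raises genes of amino acid synthesis and uptake. Of 19 genes of a list of Atf4 and its targets, 13 were higher and 1 lower in C2 (median 0.61), 0 were higher and 14 lower in C4 (median -0.75), and 0 were higher and 18 lower in C4 against C2 (median -1.27). The list was drawn up with earlier results of these data known, so its counts are a description. Atf4 itself, named after its value was seen, rose by 0.46 in C2 (limma, adjusted p = 0.0243). Its C4 difference of -0.22 did not pass (adjusted p = 0.117). Slc3a2, Slc7a11 and Chac1 are on this list too. Of all genes with a mean of at least 4, 3.21% were higher and 1.57% lower in C2. The shares were 10.7% and 6.78% in C4, and 8.13% and 6.67% in C4 against C2. Asns, asparagine synthetase, had values of 11.48, 11.41 and 11.48 in Ctr, 12.06, 12.03 and 12.10 in C2, and 10.57, 10.66 and 10.56 in C4, a rise of 0.61 (limma, adjusted p = 0.00218) and a fall of 0.86 (adjusted p = 1.43e-04). Nupr1, a stress-induced chromatin protein, rose by 1.01 in C2 (adjusted p = 0.00156) and fell by 1.11 in C4 (adjusted p = 2.09e-04). Ddit3, which encodes the stress factor CHOP, rose by 0.86 in C2 (adjusted p = 0.00156) and fell by 0.30 in C4 (adjusted p = 0.0112), and its other probe set had differences of 0.036 and 0.15, without a call. The gene lower in both conditions was Ddit4, and the gene without a call in C4 against C2 was Cebpb, both named after their values were seen. Without Ctr replicate 2 or C2 replicate 3, 8 of the genes were higher in C2, and a replicate block in the fit left 6. With limma's robust option 5 were higher in C2.

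**Figure D4:**
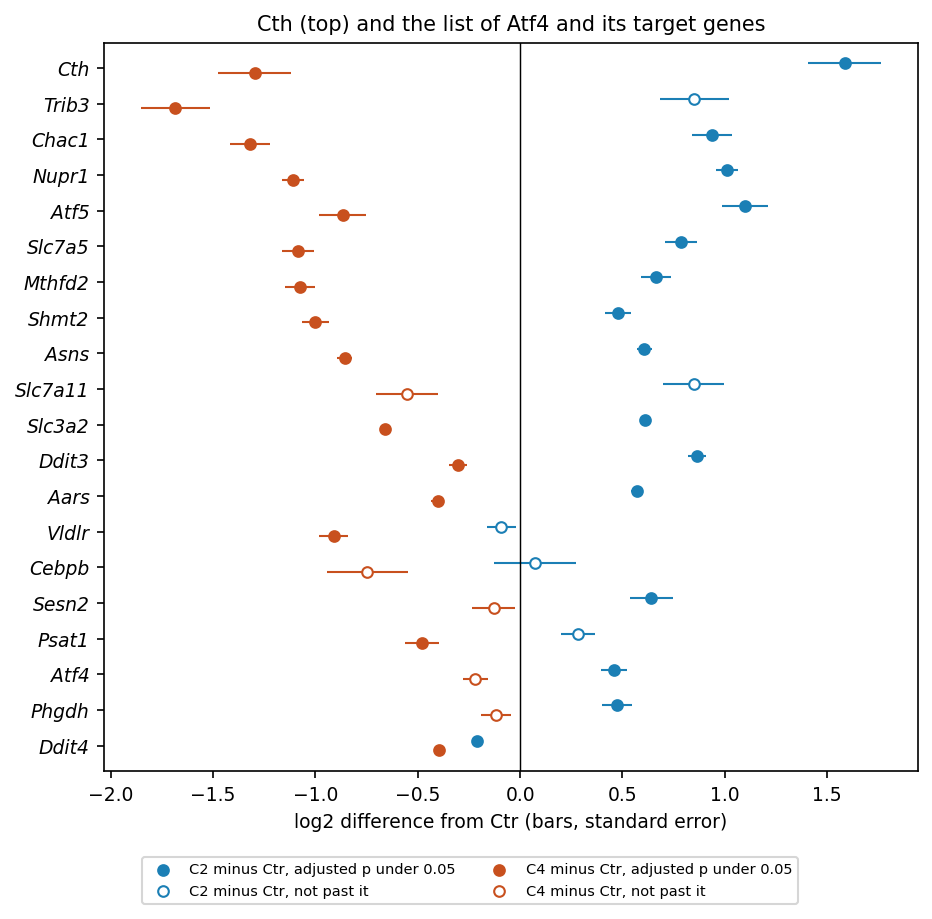
Log2 differences from Ctr in C2 (blue) and C4 (orange) of Cth (top) and the 19 genes of the list of Atf4 and its targets, by brightest probe set, ordered by C4 minus C2. Points are differences between means of 3 arrays, bars are standard errors from limma, and filled points have an adjusted p under 0.05. Most blue points lie to the right of 0 and all orange points to the left, with Cth furthest right in C2 (1.59).

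The promoters of 3 of these genes are shown for the element that ATF4 is known to bind with C/EBP proteins, searched as TGATGNAA on both strands. Of the 17 list genes with a promoter in the RefSeq table, 6 held it (35.3%), against 4.51% of all 27025 genes and 0 of the 7 enzyme genes. Cth, Gclc and Gsr had no entry in the table. The match is in capitals. Asns lies at chr6:7693214-7693243 on the minus strand, Chac1 at chr2:119351038-119351067 on the plus strand and Nupr1 at chr7:126625562-126625591 on the minus strand, and in Chac1 and Nupr1 the element is read on the opposite strand.
Asns: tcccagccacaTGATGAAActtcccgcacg
Chac1: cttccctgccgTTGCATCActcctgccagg
Nupr1: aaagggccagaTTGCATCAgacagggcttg
The other list genes with a match were Slc7a11, Trib3 and Vldlr. As for Gclm, a match is a description of the letters, and binding was not measured.

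The 5 genes whose values followed those of Cth most closely over the 9 arrays were Lars (Pearson r = 0.993), Psph (0.989), Slc7a1 (0.988), Cebpg (0.988) and Jag1 (0.988), out of 782 genes over the floor with a range of at least 1. The 9 arrays fall into 3 conditions, and these correlations are given as a description. Lars encodes the cytosolic leucyl-tRNA synthetase, and its values were 10.59 to 10.70 in Ctr, 11.19 to 11.24 in C2 and 10.21 to 10.27 in C4. Psph, the last enzyme of serine synthesis, had 10.13 to 10.24, 10.81 to 10.86 and 9.82 to 9.91. Slc7a1, a transporter of cationic amino acids, had 9.86 to 10.04, 10.71 to 10.88 and 8.96 to 9.15. Cebpg, a C/EBP family transcription factor, had 8.73 to 8.81, 9.41 to 9.46 and 8.03 to 8.06, and Jag1, a Notch ligand, had 8.99 to 9.06, 9.60 to 9.70 and 8.58 to 8.64. In each of these genes, as in Cth, every C2 array lay above and every C4 array below the Ctr arrays. The genes were chosen by their correlation with Cth over these arrays, so the shared order is no separate result.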

How the data were processed

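RNA of 9 aOBSC neurosphere samples was hybridised by the authors to Affymetrix whole-genome mouse arrays, and the deposited log2 values are the authors' GCRMA-normalised values, 1 per probe set. No further normalisation was applied. Of 45101 rows, 64 Affymetrix controls were left out. Symbols come from the platform annotation, updated through RefSeq gene identifiers, and the brightest probe set (highest mean) stands for a gene. Scanner signals were not used here, and precision is limited by how many arrays there are. Some deposited values were identical on several arrays, also for bright probe sets such as Gstm1 in C2 (11.18) and Olig2 in C4 (12.14). Where values tie, the spread between arrays may be understated and the p-values may be too small. The cause of these ties was not tested.

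Conditions were compared with limma (version 3.58.1, R 4.3.3; 1 mean per condition over all 9 arrays, eBayes with an intensity trend, Benjamini-Hochberg over 45037 probe sets), and a call is an adjusted p under 0.05. The fitting code was checked on simulated data with independent noise and differences added in C4. That check does not show how well the p-values hold on the real arrays. Differences between genes within arrays used exact permutation. Members and lists were chosen with earlier results of these data known. Named were all members, from each list the 3 genes of smallest p in C4 and the 2 in C2 among those with a condition mean of at least 4, and the 5 genes most like Cth; the text says where others were added, and these were recomputed under other settings only within their list's counts. Other settings were 18, of which 9 left out 1 array; for lists and their genes they were added after seeing the data.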

Additional observations from a re-analysis of the deposited data

Results flagged for a closer look

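The genes below were picked because they passed limma's test in opposite directions in C2 and C4, and also in C4 against C2. The C4 against C2 values below were thus part of the choice and are a description. The C4 minus C2 difference was -2.88 for Cth (adjusted p = 3.92e-04), -2.26 for Chac1 (adjusted p = 1.04e-04), -2.12 for Nupr1 (adjusted p = 1.74e-05), -1.46 for Asns (adjusted p = 1.47e-05), -1.27 for Slc3a2 (adjusted p = 4.77e-06) and -1.17 for Ddit3 (adjusted p = 5.84e-05). In each of them the 3 C4 arrays lay below the 3 C2 arrays.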

How the results depend on the processing

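Of 483 member differences recomputed under 18 other settings, 471 kept their direction and their side of the threshold or were without a call in both, 8 lost their call, 4 gained one and 0 reversed, and 23 changed sign without a call in either. The count of members called in C2 against Ctr (1) became 0 with limma's robust option and 0 at the study's threshold (a difference of at least 1 and an adjusted p under 0.01), and ranged from 0 to 1 when 1 array was left out. The count in C4 against Ctr (2) became 0 with only the conditions compared in the fit and 1 at the study's threshold, and stayed at 2 whichever array was left out. The count in C4 against C2 (1) became 2 with a filter on dim probe sets, 2 with arrays centred on the median and 3 with the mean of a gene's probe sets, where Gclc (-0.43, adjusted p = 0.0102) and Gclm (0.10, adjusted p = 0.0245) passed. The cause of these changes was not tested. Over all settings the difference of Cth ranged from 1.45 to 1.71 in C2 and from -1.43 to -1.14 in C4, and that of Gclc in C4 from -0.78 to -0.63. After each condition's mean was removed, arrays of 2 conditions correlated by -0.043 to 0.14 where same-numbered and by -0.12 to 0.12 otherwise. With 3 arrays a condition this cannot settle whether the replicate numbers pair the arrays. With the replicate block the members called were 1 in C2, 2 in C4 and 1 in C4 against C2. Over all probe sets 767, 2833 and 2363 were called in the 3 comparisons, 237, 1996 and 1634 with the replicate block, 45 to 1825, 1386 to 4697 and 1178 to 3908 over all settings, and 323 to 584, 1818 to 2585 and 1485 to 2091 with 1 array left out. Of 1080 differences of 20 pathway genes, 968 kept their side of the threshold, 98 lost a call, 14 gained one and 0 reversed, under settings added after seeing the data. With the replicate block the named pathway genes that lost a call were Chac1, Srm, Got1, Gstm1 and Txn1 in C2 (adjusted p = 0.0689, 0.0559, 0.0648, 0.0716 and 0.0571), Ddit3, Mtap and Txn1 in C4 (0.0572, 0.087 and 0.115) and Txn1 in C4 against C2 (0.0953). With limma's robust option the same 5 genes lost their C2 calls (0.0717, 0.0965, 0.2, 0.1 and 0.094), and so did Adi1, Mtap, Txn1 and Ddit3 in C4 (0.452, 0.116, 0.213 and 0.0689) and Txn1 in C4 against C2 (0.17). Mtr, the second probe sets of Cbs and Gss and the Ctr values of Slc1a1 were too near the floor for a change to be measured well. The brighter probe sets of Cbs and Gss were low on this scale too.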
